A study of Mus musculus with 9 samples.

Results

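Polyamine synthesis and its control were followed in mouse hepatoma cells through the transcripts of 10 genes: Odc1, Amd1, Srm, Sms, Oaz1, Oaz2, Azin1, Sat1, Paox and Smox. They were taken from the 28932 genes of the deposited tables by gene symbol, and each gene is represented by 1 transcript, selected by the highest mean read count over the 9 libraries. Counts of these same libraries thus chose the transcript, but the choice used the mean over all groups and no difference between groups. Of the 10 symbols, 9 occur as such in the tables. Oaz2 is listed there as Oaz2-ps under gene ID 18247, which the RefSeq table gives for Oaz2.

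RNA sequencing of total RNA covered 9 libraries of Hepa 1 WT cells, a mouse hepatoma line whose cell line label reads HC1C. The 3 control libraries carry the label untreated, but a vehicle is named in the treatment protocol. Another 3 libraries come from cells given 10 nM FICZ and 3 from cells given 50 uM tryptamine, and treatment lasted 6 h. FICZ, formed from tryptophan by light, is a ligand of the transcription factor AhR (aryl hydrocarbon receptor). Tryptamine, a decarboxylation product of tryptophan, is described in the series title as a proligand whose action on this receptor depends on monoamine oxidases. The labels give 1 cell line and no genetic change, and separate cultures are not stated for the libraries of a group. If they share a culture, the p-values measure only the spread between these samples, which may be technical.

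Polyamines are small positively charged metabolites that bind nucleic acids and are needed for growth and translation. Ornithine decarboxylase, encoded by Odc1, makes putrescine and is a rate-limiting enzyme of the pathway. Its level is controlled after translation: antizymes bind it and send it to the proteasome without ubiquitin, and antizyme inhibitor, a relative of the enzyme without its activity, holds antizyme away from it. Excess spermidine and spermine are acetylated and oxidised back to smaller polyamines or exported. Proliferating cells and tumours, hepatomas among them, are known for high ornithine decarboxylase activity, and Odc1 is a textbook target of the transcription factor Myc.

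The antizymes carry the best known sequence signal of this pathway. The ribosome meets a stop codon early in antizyme mRNA and makes full-length protein only where it shifts to the next reading frame, which polyamines promote. The site is shown for each antizyme because the mRNA levels given further on do not report this step. Both come from GENCODE M21 transcripts, with the last codon before the shift, the stop codon and the next base in capitals.
Oaz1 frameshift site: ctcggtggtgcTCCTGATgtccctcaccc
Oaz2 frameshift site: ctctgtggtgcTCCTGATgcccctcaccc
The capitals are the same letters, TCCTGAT, in each. The Oaz1 site was found in a 2526 nt transcript that GENCODE annotates as a retained intron and in a coding one of 538 nt. The former has the length of the transcript that stands for Oaz1 here. The Oaz2 site was found only in transcripts that GENCODE does not annotate as protein coding. The search did not find these sites in the coding transcripts of 1071 nt for Oaz1 and of 1840 and 1843 nt for Oaz2. It looked only for the exact letters TCCTGAT, so a site written differently in an annotated sequence would be missed. Whether these mRNAs lack the site in the cell was therefore not tested.

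Odc1 and Smox, a spermine oxidase, were the members whose FICZ and control libraries did not overlap, so the 250 bases before their start sites are shown. They are RefSeq sequences on build GRCm38.p6, and capitals mark GCGTG on either strand, which reads CACGC when it lies on the other one. GCGTG is the core of the motif bound by the AhR with its partner Arnt.
Odc1, chr12:17544623-17544872, plus strand: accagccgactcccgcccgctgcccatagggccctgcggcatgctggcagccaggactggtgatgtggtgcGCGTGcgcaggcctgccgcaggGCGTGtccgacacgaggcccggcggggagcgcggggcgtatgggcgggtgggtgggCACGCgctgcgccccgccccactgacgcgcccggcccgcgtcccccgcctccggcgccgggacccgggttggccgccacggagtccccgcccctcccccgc
Smox, chr2:131491612-131491861, plus strand: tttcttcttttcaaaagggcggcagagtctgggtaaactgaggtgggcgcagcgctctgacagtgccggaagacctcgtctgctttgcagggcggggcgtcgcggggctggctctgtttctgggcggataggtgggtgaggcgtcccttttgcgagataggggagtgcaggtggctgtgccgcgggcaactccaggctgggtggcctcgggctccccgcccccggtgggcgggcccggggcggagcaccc
The Odc1 window held 3 matches to GCGTG and the Smox window 0. Of all 32851 windows of this length, 28.2% held at least 1 match and 2.77% held 3 or more. The window of Oaz1 also held 3, those of Amd1 and Paox 1 per start site, and those of Oaz2 and Sat1 0. Of 2 start sites given for Sms, 1 had 2 matches and the other 0. CACGTG, the E-box bound by Myc with Max, was in 0 of these windows other than 1 of Sms, against 6.02% of all windows. Only these 250 bases were searched, so matches elsewhere in a gene, introns included, were not looked for. RefSeq windows were matched for 8 of the 10 members, and Srm and Azin1 are named only. A match of letters does not show that a factor binds there.

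Total counts over genes ran from 11594789 in control replicate 3 to 16715848 in FICZ replicate 2. Control replicate 3 stood apart: its log2 levels correlated with those of the other libraries across genes at 0.948 to 0.953, while each of the others had a highest correlation of 0.987 to 0.99. On the log2 scale its median deviation was 0.68 for transcripts of at most 1000 nt and -0.85 for those over 6000 nt. Differences from control are therefore also given without it for the members and wherever leaving it out turned a sign or moved a value by much. Of 8 hepatocyte and hepatoma markers, 5 had at least 10 counts in every library, among them Alb (254 CPM in control), Afp (165 CPM), Krt8 and Krt18. Ttr, Apoa1 and Hnf4a were at 0 counts. CPM, the unit of all levels per library here, are edgeR's library-scaled counts, which take transcript length into no account. The summed level of the hepatocyte and hepatoma list was 4860 to 6743 CPM in control, 4388 to 4551 with FICZ and 4617 to 4815 with tryptamine. Most of it was the keratins Krt8 and Krt18. The 6743 CPM were those of control replicate 3, where Krt18 stood at 3298 CPM, against 2113 and 2116 CPM in control replicates 1 and 2. Of 6 fibroblast and stellate markers, 5 had at least 10 counts in every library, with sums of 1375 to 1677, 1608 to 1731 and 1606 to 1747 CPM. Most of these sums was Col1a1 (1087 CPM in control), while Col1a2 had 11 counts over all libraries. Blood and endothelial markers summed to 2.8 to 5.79 CPM over all libraries, with Adgre1 and Hbb-b1 at 0. Bile duct markers had sums of 1114 to 1550 CPM in control, 1046 to 1098 with FICZ and 1019 to 1098 with tryptamine, most of it Krt7, with Epcam at 0. Control replicate 3 also gave the highest bile duct sum and the lowest fibroblast and stellate sum. The part of these marker levels in the results was not tested. In bulk libraries fewer cells of a type and less RNA per cell cannot be told apart.

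As a check that the agents acted, Cyp1a1, a cytochrome P450 induced by the AhR, stood at 59.2 ± 4.31 CPM (SD, n = 3) in control cells. FICZ libraries held 1002.8 ± 45.2 CPM and tryptamine libraries 703.2 ± 44 CPM of it. By edgeR's quasi-likelihood test with all 9 libraries, the adjusted p of Cyp1a1 was 5.03e-09 with FICZ and 1.66e-08 with tryptamine. Cyp1b1, of the same enzyme family, stood at 4.29 ± 1.2, 14.5 ± 0.616 and 11.8 ± 2.82 CPM in these groups, from 34 to 74 counts per control library. Its adjusted p by the same test was 0.0224 with FICZ and 0.242 with tryptamine, and 3.67e-05 and 0.00297 without control replicate 3.

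The first comparison asks whether 10 nM FICZ changed the polyamine genes within 6 h. Odc1 was the member that moved most. With all 9 libraries it was 26.6% lower with FICZ than in control and did not pass the test, which 0.113% of all genes passed. Without control replicate 3 it was 22.1% lower and passed, as did 0.805% of all genes. Smox was 25% higher without passing. The spermidine and spermine synthases, the antizymes, antizyme inhibitor and the acetylating enzyme Sat1 differed by less, and none of them passed. The plot of levels by library shows all 9 tested members.

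**Figure D1:**
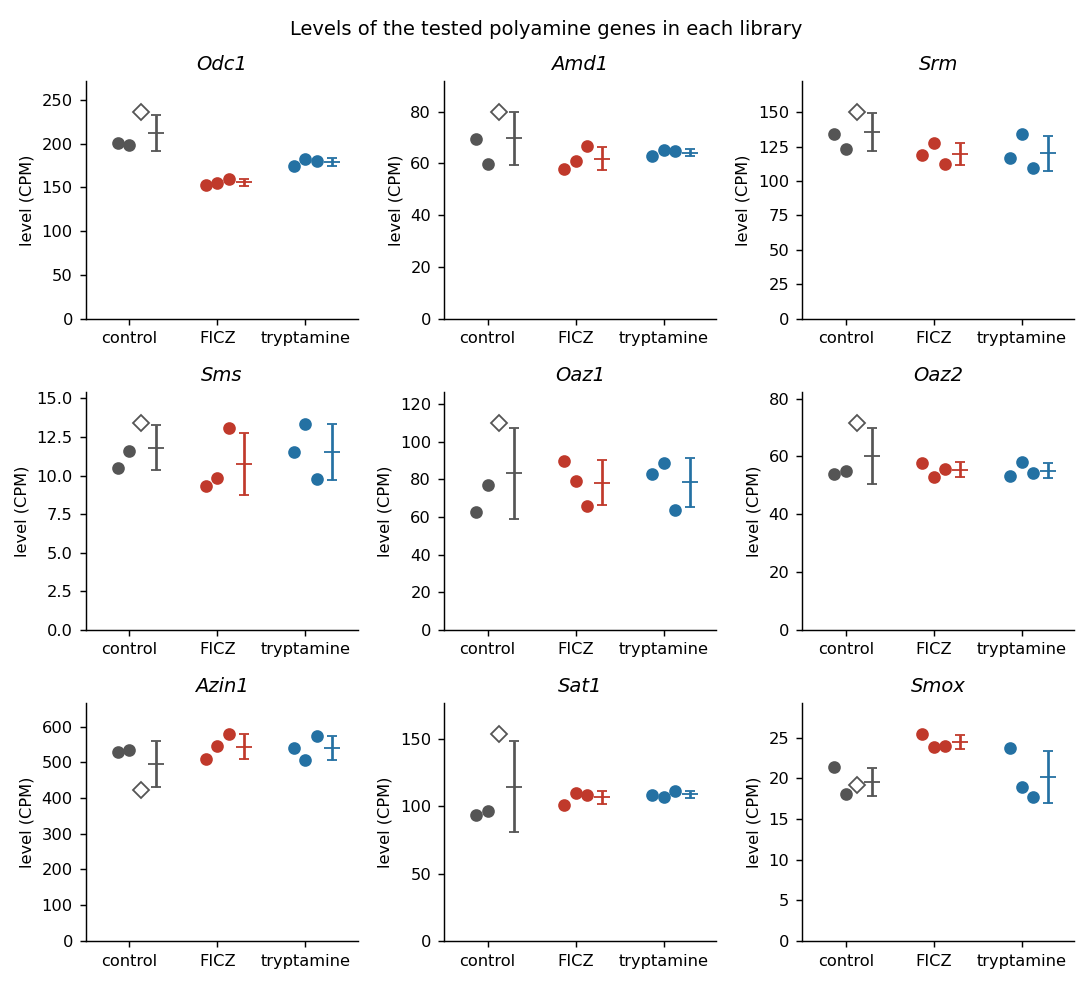
Level of each tested polyamine gene in CPM (y axis, linear from 0) in each of 9 libraries, by group (x axis). Points are libraries, the open diamond is control replicate 3, and bars are the mean and SD of 3 libraries. For Odc1 the FICZ libraries lie at 152 to 159.9 CPM, below all tryptamine libraries (174 to 182) and all control libraries (199 to 236).

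Odc1 (gene ID 18263), the enzyme that opens the pathway, stood at 201, 199 and 236 CPM in control replicates 1, 2 and 3. Its level was 152, 155 and 159.9 CPM in the FICZ libraries and 174, 182 and 180.1 CPM in the tryptamine libraries. The groups did not overlap: every control library was above every tryptamine library, and every tryptamine library above every FICZ library. Over all genes tested, every FICZ library was below every control library for 7.4% and below every tryptamine library for 5.84%. Every tryptamine library was below every control library for 4.88%. The share of genes with this order of all 3 groups was not counted. The Odc1 levels rest on 2139 to 2970 counts per library. Against control the log2 difference with FICZ was -0.45 ± 0.094 (SE, 95% interval -0.65 to -0.24), and the adjusted p was 0.217 by edgeR's quasi-likelihood test over 12372 genes. An adjusted p under 0.05 counts as passing. By its unadjusted p of 0.00063 Odc1 ranked 36 of all genes tested, of which 14, or 0.113%, passed. Of the 9 tested members 0 passed by edgeR and 1, Odc1, by DESeq2's Wald test, and at an unadjusted p under 0.05 1 was higher and 1 lower, against 435 and 569 of all 12372 genes. Leaving out control replicate 3 gave 2 higher (Smox and Sat1) and 1 lower, against 642 and 608 of 12539.

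The Odc1 difference held its sign in each of 20 alternative ways of fitting the data, between -0.51 and -0.36, and passed in 4 of them. Without control replicate 3 Odc1 fell by 0.36 ± 0.066 on the log2 scale (SE, adjusted p = 0.00283), in a fit in which 0.805% of all genes passed, 72 higher and 29 lower. In DESeq2's Wald test with all 9 libraries it was -0.44 (adjusted p = 0.0036), where 0.436% of all genes passed. Correcting each library for transcript length gave -0.42 (adjusted p = 0.0154, 0.412% of genes passing). The same correction with the replicate number as a block gave -0.42 (adjusted p = 0.0264, 0.275% passing). In the other 16 alternatives it did not pass, with an adjusted p of up to 0.834. In the authors' deposited table, the Odc1 transcript had a log2 fold change of -0.51 (adjusted p = 3.79e-05), where 5.61% of transcripts with an adjusted p lay under 0.05. The transcripts of the other 9 members were not under 0.05 in the authors' deposited table. The call on Odc1 thus depended on the fit and on control replicate 3, while its direction did not in any fit run.

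**Figure D2:**
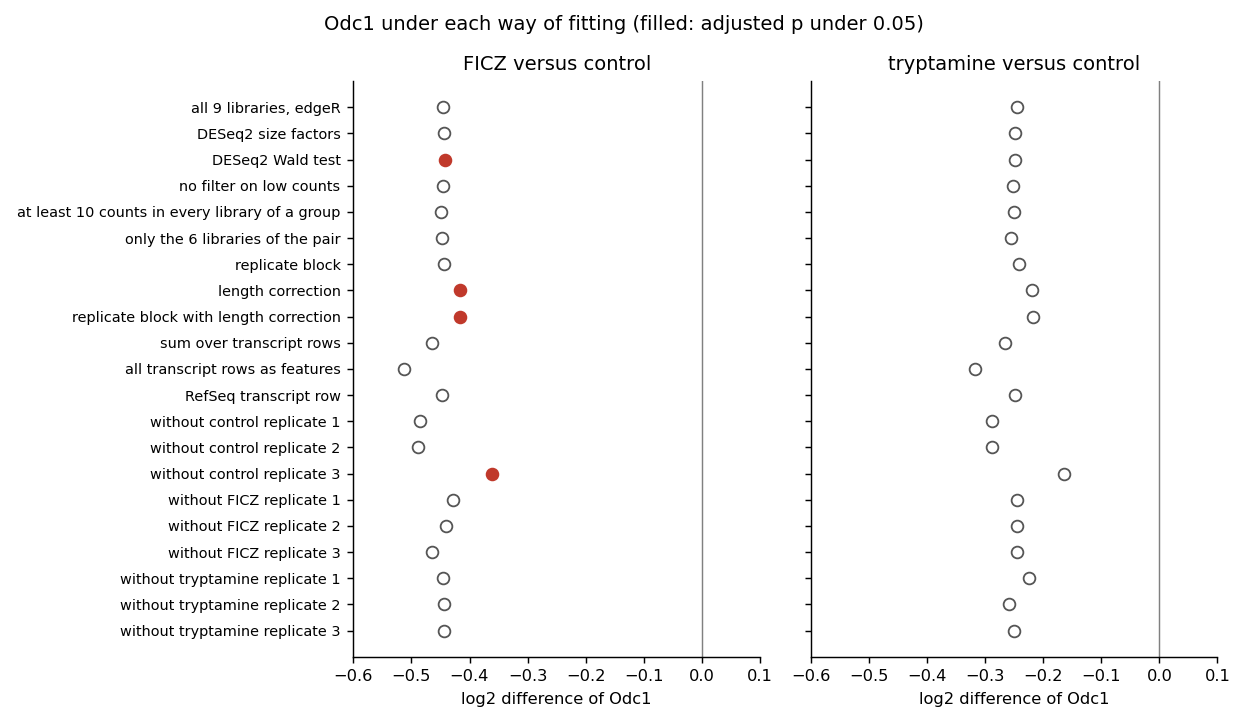
Log2 difference of Odc1 (x axis) with FICZ and with tryptamine against control, under the fit to all 9 libraries and 20 alternatives (rows). Filled points have an adjusted p under 0.05: 4 alternatives with FICZ and 0 with tryptamine, and all points lie below 0.

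The other enzymes of synthesis overlapped control in at least 1 library and did not pass. Amd1 (gene ID 11702) makes decarboxylated S-adenosylmethionine, the donor of the aminopropyl group. It stood at 69.5, 59.6 and 79.8 CPM in control, 57.9, 60.7 and 66.6 CPM with FICZ, and 62.9, 65 and 64.7 CPM with tryptamine. Its groups overlapped, and the log2 difference with FICZ was -0.17 (95% interval -0.44 to 0.09, adjusted p = 0.612). Srm (gene ID 20810), spermidine synthase, stood at 134, 123 and 150.2 CPM in control, 119, 128 and 112 CPM with FICZ, and 117, 134 and 109.8 CPM with tryptamine. FICZ libraries overlapped control ones, with a log2 difference of -0.18 (95% interval -0.43 to 0.07, adjusted p = 0.604). Sms (gene ID 20603), spermine synthase, was the lowest of the synthesis genes at 10.5, 11.6 and 13.4 CPM in control. It stood at 9.32, 9.82 and 13.1 CPM with FICZ and at 11.5, 13.4 and 9.74 CPM with tryptamine, again overlapping, with a log2 difference of -0.14 for FICZ (95% interval -0.55 to 0.27). Without control replicate 3 the differences with FICZ were -0.06 for Amd1, -0.10 for Srm and -0.04 for Sms. Reads of Amd1 may be shared with Amd2, a near copy without introns in the tables, so its level is uncertain to that extent.

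The antizymes and their inhibitor showed no separation between groups. Oaz1 (gene ID 18245), the most widely expressed antizyme, stood at 62.7, 77 and 109.8 CPM in control, 89.5, 79.3 and 65.5 CPM with FICZ, and 82.6, 88.7 and 63.6 CPM with tryptamine. Libraries within each group differed more than the group means did, which gave a log2 difference of -0.09 with FICZ (95% interval -0.54 to 0.36). The sign turned without control replicate 3, the highest Oaz1 library, to 0.16 with FICZ and 0.16 with tryptamine. Oaz2 (gene ID 18247), a second antizyme, stood at 54, 55 and 71.5 CPM in control, 57.8, 52.9 and 55.6 CPM with FICZ, and 53.1, 58 and 54.1 CPM with tryptamine. All libraries of Oaz2 but control replicate 3 lay between 52.9 and 58 CPM, so that library sets its log2 difference of -0.12 with FICZ, which was 0.02 without it. Azin1 (gene ID 54375), antizyme inhibitor, had the highest count of the 10 genes, at 529, 535 and 422 CPM in control. It stood at 509, 545 and 578 CPM with FICZ and 539.8, 508 and 573 CPM with tryptamine. Its lowest library was again control replicate 3, and the log2 difference was 0.14 with FICZ (95% interval -0.10 to 0.37) and 0.03 without that library.

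Among the genes of polyamine breakdown, Smox differed most. Smox (gene ID 228608), which oxidises spermine back to spermidine and releases hydrogen peroxide, stood at 21.4, 18 and 19.2 CPM in control and at 25.4, 23.9 and 24 CPM with FICZ. Every FICZ library was above every control library. With FICZ this made a log2 difference of 0.32 ± 0.139 (SE, 95% interval 0.02 to 0.63, adjusted p = 0.601). It was 0.31 without control replicate 3 (adjusted p = 0.443), and it did not pass in any of the 20 alternatives, in which it ranged from 0.26 to 0.39. Over all genes tested, every FICZ library was above every control library for 8.21% and below for 7.4%, so the 1 member in each direction, Smox and Odc1, is read against these shares.

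Sat1 (gene ID 20229), which acetylates spermidine and spermine, stood at 93.4, 96.6 and 153 CPM in control, 101, 110.2 and 109 CPM with FICZ, and 108, 107 and 112 CPM with tryptamine. Control replicates 1 and 2 were below all treated libraries and control replicate 3 above them. The sign of its difference therefore turned with that library: -0.10 with all 9 libraries and 0.17 without control replicate 3 (95% interval 0.01 to 0.33, adjusted p = 0.452) for FICZ, and -0.07 and 0.19 for tryptamine (adjusted p = 0.88 and 0.686). It was also above 0 when libraries were corrected for transcript length, at 0.08 for FICZ. Paox (gene ID 212503), which oxidises the acetylated polyamines, was close to absent from these libraries. Its raw counts were 5, 2 and 3 in control, 4, 0 and 0 with FICZ and 1, 0 and 3 with tryptamine, and it was not tested. The sums of 10 (exact Poisson 95% interval 4.8 to 18.4), 4 (1.09 to 10.2) and 4 (1.09 to 10.2) cover counting error only, and no difference was detectable at this depth.

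**Figure D3:**
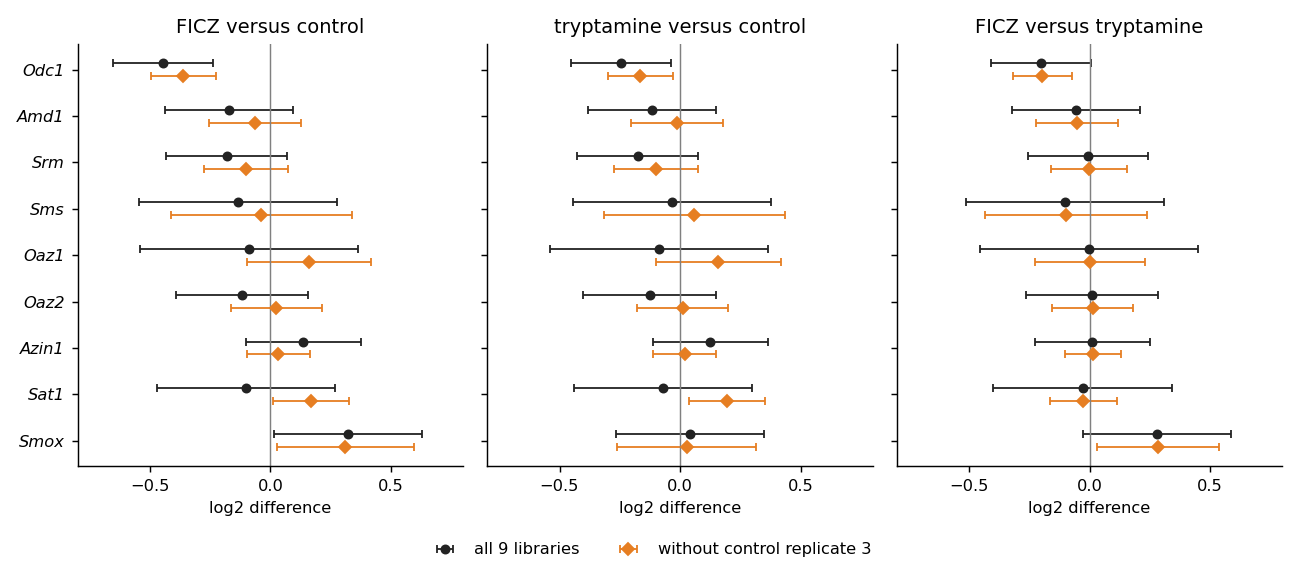
Log2 difference (x axis) of each tested polyamine gene (rows) in 3 comparisons, with 95% intervals. Black circles are the fit to all 9 libraries and orange diamonds the fit without control replicate 3. With FICZ against control and all 9 libraries the interval excludes 0 for Odc1 (-0.65 to -0.24) and Smox (0.02 to 0.63). Without control replicate 3 it excludes 0 for these and for Sat1 (0.01 to 0.33). In this comparison the points of Oaz1, Oaz2 and Sat1 change sign between the fits.

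Over all genes, the deviation of control replicate 3 ran with transcript length, and the members followed this in part. Its level over the mean of control replicates 1 and 2 was 0.66 higher on the log2 scale for Oaz1 and 0.69 higher for Sat1. For Oaz2 this value was 0.39, for Amd1 0.31, for Sms 0.28, for Odc1 0.24 and for Srm 0.23. Smox was at -0.03 and Azin1, the member with the longest transcript (5028 nt), at -0.33. All genes tested had a median of 0.48 for transcripts of 1000 to 1500 nt, the range of Sat1 (1272 nt) and Srm (1328 nt), and of -0.52 for those of 5000 to 6000 nt, where Azin1 lies. Amd1 (3203 nt) and Sms (3501 nt) lay above the median of their range, 3000 to 4000 nt, which was -0.11. The transcript that stands for Oaz1 has 2526 nt and 2 exons, and at that length the median was 0.05. The RefSeq transcript of Oaz1, with nearly as many counts, has 1075 nt, in the range with the median of 0.48. With the length correction Odc1 stood at 204, 200.3 and 223 CPM in control and 153, 155 and 162 CPM with FICZ, so its groups did not overlap there either.

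**Figure D4:**
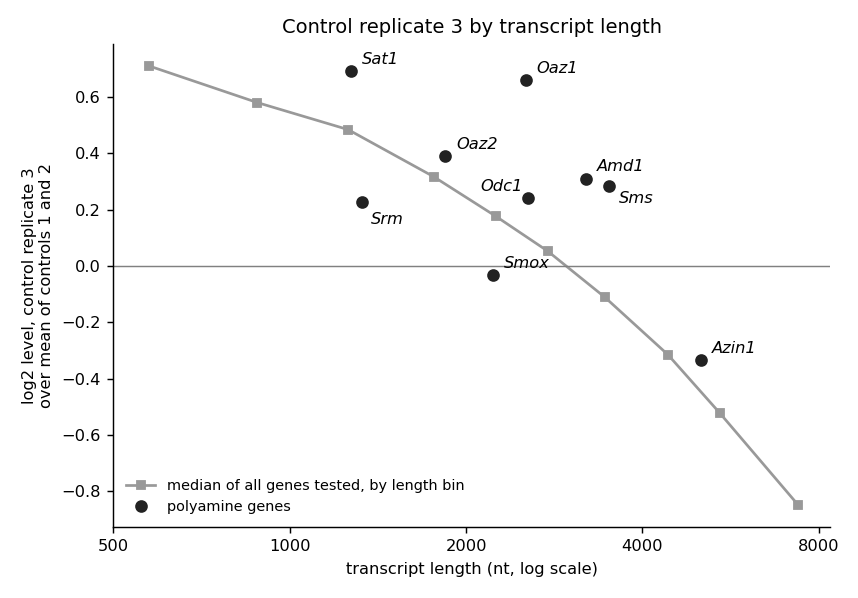
Log2 level in control replicate 3 over the mean of control replicates 1 and 2 (y axis) against transcript length in nt (x axis, log scale). Grey squares are medians of all genes tested by length, from 0.71 for the shortest to -0.85 for the longest, and black points are the 9 tested polyamine genes, of which Oaz1 (0.66) and Sat1 (0.69) lie highest.

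Levels can be compared between genes only per transcript length. In RPKM (CPM per 1000 nt) of the RefSeq transcripts, control cells held Srm at 102 ± 10.3, Sat1 at 102 ± 30, Azin1 at 98.5 ± 12.7, Odc1 at 83.2 ± 8.2 and Oaz1 at 73.2 ± 22.3 (SD, n = 3). The ranges of mean ± SD of neighbours in this order overlapped among these 5 genes, so their order in control is not resolved. These control values include control replicate 3, which was high for Sat1 and low for Azin1. Oaz2 followed at 32.6 ± 5.32, Amd1 at 21.8 ± 3.15, Smox at 8.61 ± 0.731 and Sms at 3.43 ± 0.443 RPKM, each apart from its neighbours by more than these SDs. Paox was last at 0.14 RPKM. In FICZ libraries Azin1 was the highest at 108 ± 6.89 RPKM, against 95.2 ± 4.17 for Sat1 and 90.1 ± 5.82 for Srm. It was also the highest with tryptamine, at 107 ± 6.49 RPKM, against 97.1 ± 2.35 for Sat1 and 90.5 ± 9.42 for Srm. Srm, the spermidine synthase, stood above Sms, the spermine synthase, in every group per length, at 90.1 against 3.17 RPKM in FICZ libraries and 90.5 against 3.3 RPKM in tryptamine libraries. The value of Oaz1 depends on its transcript, being 32.9 ± 9.56 RPKM for the longer one with the highest count.

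**Figure D5:**
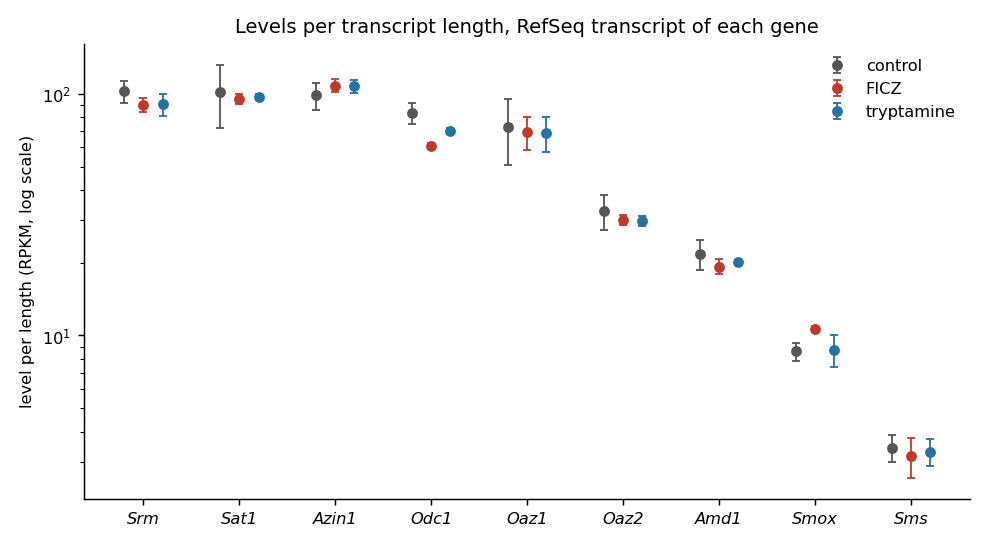
Level per transcript length in RPKM (y axis, log scale) of 9 polyamine genes in each group, from RefSeq transcripts. Points are means and bars SD of 3 libraries; Paox, at 0.14 RPKM or below, is not drawn. Levels run from about 102 RPKM for Srm and Sat1 to 3.43 RPKM for Sms in control.

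Tryptamine was compared with control at 50 uM. With all 9 libraries Odc1 was again the member with the largest difference, 15.6% lower, and again every treated library was below every control library. Sat1 (0.19) was farther from 0 than Odc1 (-0.16) without control replicate 3, and Srm and Odc1 were each at -0.26 without tryptamine replicate 2. By edgeR's test and by DESeq2's Wald test 0 members passed, and 1, Odc1, had an unadjusted p under 0.05, against 270 higher and 367 lower of all 12372 genes. When control replicate 3 was left out, Odc1 was lower and Sat1 higher at that threshold, against 448 genes higher and 376 lower of 12539. The log2 difference of Odc1 was -0.25 ± 0.094 (SE, 95% interval -0.45 to -0.04, adjusted p = 0.741), and it was -0.16 ± 0.066 (SE, adjusted p = 0.696) without control replicate 3. It kept its sign in 20 of 20 alternatives and passed in 0. In this comparison 0.00808% of all genes passed with 9 libraries and 0.199% without control replicate 3. The share of genes with every tryptamine library below every control library was 4.88%, and above 5.19%. In the authors' deposited table Odc1 had a log2 fold change of -0.31 (adjusted p = 0.149), where 1.45% of transcripts lay under 0.05. Smox, at 23.7, 18.9 and 17.7 CPM with tryptamine, overlapped control, with a log2 difference of 0.04 (95% interval -0.27 to 0.35). The differences with tryptamine were -0.12 for Amd1, -0.18 for Srm, -0.03 for Sms, -0.13 for Oaz2 and 0.12 for Azin1. Without control replicate 3 they were -0.01, -0.10, 0.06, 0.01 and 0.02, and that of Smox was 0.03. Comparisons with control share the 3 control libraries, so the lower Odc1 in each is not independent.

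FICZ and tryptamine were set against each other at 10 nM and 50 uM, so the doses differ. Their libraries share no control. Odc1 was 13% lower with FICZ than with tryptamine and Smox 21.4% higher, each without overlap of the libraries. Odc1 differed by -0.20 ± 0.094 on the log2 scale (SE, 95% interval -0.41 to 0.0063, adjusted p = 1). Smox differed by 0.28 ± 0.138 (SE, 95% interval -0.03 to 0.58, adjusted p = 1). Without control replicate 3, whose counts enter this comparison only by way of scaling, filtering and the estimate of the spread, they were -0.20 (adjusted p = 0.412) and 0.28 (adjusted p = 0.739). With 9 libraries 0% of genes, 0 of 12372, passed edgeR's test of this pair. An unadjusted p under 0.05 was found for 87 genes that were higher and 126 that were lower with FICZ, and for 0 members. In the fit without control replicate 3 it was found for 2 members, Odc1 (95% interval -0.32 to -0.07) and Smox (0.03 to 0.54), against 377 genes higher and 371 lower of 12539. DESeq2's Wald test called 10 genes, and 0.136% passed edgeR's test without that library. Every FICZ library was below every tryptamine library for 5.84% of genes and above for 5.46%. The other 7 tested members differed by between -0.10 and 0.01 on the log2 scale, with intervals as wide as -0.51 to 0.31 for Sms and -0.46 to 0.45 for Oaz1.

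As a group the 9 tested members had a median log2 difference of -0.12 with FICZ, with 7 below 0. Over all genes tested the median was -0.01, with 6303 of 12372 below 0. With tryptamine the median of the members was -0.09, again with 7 below 0, against 6123 of all 12372 genes. Without control replicate 3 the medians were 0.02 and 0.02, with 4 and 3 members below 0. The members other than Odc1 thus did not share a direction that held without this library.

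Ratios of 2 members within a library do not depend on its scaling. The log2 ratio of Odc1 to Oaz1 counts was 1.68, 1.37 and 1.10 in control, 0.77, 0.96 and 1.29 with FICZ and 1.07, 1.04 and 1.50 with tryptamine. FICZ and control overlapped, with a difference of -0.38 (exact two-sided permutation p = 0.2, adjusted p = 0.8 over 12 tests). The log2 ratio of Sat1, which starts breakdown, to Odc1, which starts synthesis, was -1.10, -1.04 and -0.62 in control. It was -0.59, -0.49 and -0.56 with FICZ and -0.68, -0.77 and -0.69 with tryptamine. Every FICZ library was above every control and every tryptamine library, by 0.38 and 0.17 in the means. The exact two-sided permutation p was 0.1 for each, the smallest that 3 against 3 libraries can give, and the adjusted p was 0.6. The ratio of Odc1 to Oaz1 differed by -0.52 and that of Sat1 to Odc1 by 0.53 between FICZ and control when control replicate 3 was left out. Between tryptamine and control these differences were -0.18 and 0.21 with all libraries, and both were also larger in size without control replicate 3. Every tryptamine library was above control replicates 1 and 2 in the ratio of Sat1 to Odc1. The ratio of Azin1 to Oaz1 overlapped between all groups. Its difference from control was 0.20 with FICZ and 0.19 with tryptamine, and turned to -0.13 and -0.14 without that library. The ratio of Srm to Sms overlapped between all groups as well, with differences of -0.03 and -0.14 from control.

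The wider pathway was read from a list of 49 further genes, of which 37 had a count and 31 were tested. With all 9 libraries 0 rose and 0 fell in any comparison by edgeR's test. At an unadjusted p under 0.05, 3 were higher and 3 lower with FICZ, and 1 was higher and 1 lower in each of the other comparisons. Over all 12372 genes these counts were 435 and 569 with FICZ, 270 and 367 with tryptamine, and 87 and 126 for FICZ against tryptamine. DESeq2's Wald test called 1 with FICZ, as did edgeR's test without control replicate 3, where 32 were tested: Gpc1, a glypican whose heparan sulfate takes part in polyamine uptake. Of all genes, 0.436% passed in the former fit and 0.805% in the latter. Gpc1 stood at 445, 475 and 395 CPM in control, 637, 607 and 561 CPM with FICZ and 531, 572 and 481 CPM with tryptamine. Every FICZ library of Gpc1 was above every control library, which held for 8.21% of all genes tested. Its log2 difference with FICZ was 0.46 ± 0.102 (SE, adjusted p = 0.304), and 0.39 (adjusted p = 0.00283) without control replicate 3. With tryptamine the log2 difference of Gpc1 was 0.27 (adjusted p = 0.741), and 0.19 without control replicate 3.

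Genes that supply S-adenosylmethionine or salvage the methylthioadenosine released by Srm and Sms had 0 of 8 tested members that passed. Their median log2 difference with FICZ was -0.21 with 7 of 8 below 0, and -0.14 with 8 of 8 below 0 without control replicate 3. Of all 12372 genes tested, 6303 were below 0 with FICZ, and 6172 without that library. FICZ against tryptamine gave a median of -0.18 with 8 of 8 below 0, against 6331 of all 12372 genes. A shared direction of these 8 genes was not tested. Mri1, a methionine salvage isomerase, stood at 25.4, 24.9 and 36.2 CPM in control, 18.4, 22.2 and 21.7 CPM with FICZ and 27.1, 26.2 and 23.4 CPM with tryptamine. Its FICZ libraries were the lowest, with a log2 difference from control of -0.47 (adjusted p = 0.601), or -0.27 (adjusted p = 0.464) without control replicate 3, its highest library. Enoph1, of the same salvage route, stood at 46.9, 45.1 and 45.8 CPM in control and 43.7, 48.5 and 45.5 CPM with tryptamine. With FICZ it stood at 35.6, 41.6 and 37.5 CPM, below every other library, with a log2 difference of -0.26 from tryptamine (adjusted p = 1). Over all genes tested, every FICZ library was below every control library for 7.4% and below every tryptamine library for 5.84%. Mat2a, which makes S-adenosylmethionine, had a log2 difference of 0.02 with FICZ, and -0.02 without control replicate 3.

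Ornithine and arginine supply had 0 of 6 tested genes that passed, with a median of -0.0040 with FICZ, and 0.0069 without control replicate 3. Arg1 and Otc, enzymes of the liver urea cycle, were at 0 counts. The hypusine pathway, in which spermidine modifies the translation factor Eif5a, had 0 of 3 that passed, and Eif5a itself stood at 1349.8, 1399 and 1799 CPM in control. Its FICZ libraries held 1446, 1415 and 1309 CPM and its tryptamine libraries 1334, 1417 and 1309 CPM, so control replicate 3 alone lay above the rest. The log2 difference of Eif5a was -0.13 with FICZ and -0.16 with tryptamine, and 0.02 and -0.03 without that library. Polyamine transport had 0 of 4 that passed with all 9 libraries.

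Myc and its partners had 0 of 8 tested genes that passed. Myc stood at 242, 268 and 249 CPM in control, 284, 259.6 and 257 CPM with FICZ and 269.6, 274 and 244 CPM with tryptamine. Its libraries overlapped, with a log2 difference of 0.08 with FICZ (95% interval -0.12 to 0.28), while Odc1 was lower in the same libraries. Mxd4, an antagonist that competes with Myc for Max, stood at 6.16, 8.53 and 7.59 CPM in control, 12.2, 10.9 and 11 CPM with FICZ and 8.43, 7.49 and 7.87 CPM with tryptamine. Every FICZ library of Mxd4 was above every other library, with log2 differences of 0.61 from control (adjusted p = 0.546) and 0.52 from tryptamine (adjusted p = 1). Over all genes tested, every FICZ library was above every control library for 8.21% and above every tryptamine library for 5.46%. Mxd3, of the same family as Mxd4, had a log2 difference of -0.60 with tryptamine and Mnt of 0.26 (each with adjusted p = 0.741). These differences were -0.31 and 0.10 without control replicate 3. That library was the highest of Mxd3, at 40 CPM, and the lowest of Mnt, at 29.6 CPM.

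The genes tested whose log2 CPM was most like that of Odc1 over the 9 libraries were Plin2, which coats lipid droplets, with r = 0.969, Psmf1, a proteasome inhibitor subunit, with 0.968, Olfml3 with 0.968, Nup37, a nucleoporin, with 0.967 and Bzw2 with 0.958. Without control replicate 3 these values were 0.94, 0.942, 0.956, 0.969 and 0.961. The libraries fall into 3 treatment groups and share their scaling, so r is given as a description. The level of Plin2 was 211 ± 21 CPM (SD, n = 3) in control, 162 ± 0.505 CPM in FICZ libraries and 172 ± 6.78 CPM in tryptamine libraries. Nup37 stood at 31.1 ± 1.86, 23.3 ± 0.803 and 27.8 ± 0.448 CPM (SD, n = 3), the order of the groups seen for Odc1. The 5 genes were selected by their likeness to Odc1 in these libraries, so a shared order of the groups is no separate result. In the comparisons with control 0 of these 5 genes passed edgeR's test with all 9 libraries. Among the members, Amd1 was most like Odc1 over the 9 libraries with r = 0.753, and Smox and Azin1 were least like it with -0.694 and -0.657.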

How the data were processed

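Read counts per transcript were deposited for 189660 transcripts in 9 libraries, as whole numbers without normalization per the file headers. The same deposited tables hold the authors' p-values, adjusted p-values and log2 fold changes. DESeq, with no version, is the tool named in the submitters' processing notes. Aligner, counting rule, genome build and annotation: not given in the sources used here. Sharing of reads between near-identical genes or antisense partners is unknown. The 9 repeated count columns compared between tables were identical. Transcripts without a gene held 3.56 to 4.23% of counts and were left out. Of 5653 entries naming several loci, 928 were assigned by RefSeq identifier.

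Each gene was represented by its transcript with the highest mean count. All 9 libraries entered 1 edgeR 4.0.16 fit (R 4.3.3; TMM, filterByExpr, group only, quasi-likelihood test), which tested 12372 genes with Benjamini-Hochberg adjustment over all of them, at a threshold of 0.05. SE is the log2 difference over the square root of F. CPM use effective library sizes. Total counts were 11594789 to 16715848. The common dispersion had a square root of 0.156, or 0.0748 without control replicate 3. Log2 ratios used a pseudocount of 0.5. The fit was tested on simulated data.

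Alternatives were size factors or the Wald test of DESeq2 1.42.0, other filters (none, or a minimum of 10 counts in each library of 1 group), the 6 libraries of a pair, a replicate block, a loess correction for transcript length (span 0.4), both together, sums over transcripts, all transcripts as features, and each library left out. The RefSeq transcript was added after seeing the data. Genes named are the 10 members, Cyp1a1 and Cyp1b1, from the list of other polyamine genes those that passed and the 3 with the smallest p in each comparison, and the 5 most like Odc1. Other genes named, such as Mat2a, Eif5a and Myc, were chosen after seeing their values. The members and lists were chosen with earlier results of these data known.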

Additional observations from a re-analysis of the deposited data

How the results depend on the processing

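Replicate numbers gave no clear sign of pairing: deviations of same-numbered libraries correlated at -0.055 to 0.095, and those of other pairs at -0.107 to 0.087. Between FICZ and tryptamine the same-numbered values were 0.051, 0.032 and 0.095, and the others -0.107 to 0.066. Control deviations include the large one of control replicate 3, so this check is weak for pairs with control. With the replicate block 0 members passed in any comparison, with 4 genes in all with FICZ against 14 without it. The number of members that passed with FICZ was 0 and became 1, Odc1, with DESeq2's Wald test, with the length correction, and with the replicate block and length correction together. It ranged from 0 to 1 when each library was left out, being 1 without control replicate 3. Of the members' log2 differences under all alternatives, 488 kept direction and call, 4 came to pass and 48 changed direction without passing.

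With the length correction, alone and with the replicate block, the log2 difference of Azin1 turned to -0.011 and -0.012 with FICZ and -0.015 and -0.015 with tryptamine. Sat1 turned to 0.081 and 0.084 with FICZ and 0.10 and 0.11 with tryptamine, and Srm to 0.0035 and 0.0043 in FICZ against tryptamine. In that last comparison Oaz1 turned to 0.0032 with DESeq2 size factors, 0.0030 with the Wald test, 0.0025 without a filter, 0.0020 with the 6 libraries of the pair, 0.0011 with the length correction, 0.0025 with block and length correction, 0.00077 with all transcripts as features and 0.0065 with the RefSeq transcript. Sums over transcripts turned Smox with tryptamine to -0.018, and Srm and Oaz2 in FICZ against tryptamine to 0.0040 and -0.0088. All transcripts as features turned Smox with tryptamine to -0.020. The cause was not tested.

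Leaving out each library gave -0.26 to 0.16 for Oaz1, -0.19 to 0.024 for Oaz2 and -0.23 to 0.17 for Sat1 with FICZ. With tryptamine it gave -0.15 to 0.076 for Sms, -0.26 to 0.16 for Oaz1, -0.20 to 0.011 for Oaz2, -0.20 to 0.19 for Sat1 and -0.094 to 0.13 for Smox. For FICZ against tryptamine the ranges were -0.067 to 0.080 for Srm, -0.27 to 0.016 for Sms, -0.13 to 0.11 for Oaz1, -0.022 to 0.049 for Oaz2, -0.036 to 0.056 for Azin1 and -0.053 to 0.0070 for Sat1.

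Over all genes, 14 passed with FICZ, against 54 with the Wald test, 26 without a filter, 2 with the 6 libraries, 51 with the length correction, 34 with it and the block, 4 with sums, 26 with all transcripts and 4 to 101 with a library left out. With tryptamine 1 passed, against 12 with the Wald test, 2 without a filter, 6 with the length correction, 5 with it and the block, 2 with sums, 4 with all transcripts and 1 to 25 with a library left out. FICZ against tryptamine gave 0, against 10 with the Wald test, 17 with the 6 libraries, 5 with the length correction, 2 with it and the block and 0 to 17 with a library left out. Depth leaves Paox untested, and Sms, with 131 to 191 counts per library, has the widest interval among synthesis genes.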
